A study of Xenopus laevis with 20 samples.

Results

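The regions described here were β-catenin peaks from gut explants of Xenopus laevis embryos that overlapped a p300 peak from the same kind of explant and no Smad1 peak from whole embryos. They were chosen by the overlap of deposited peaks, with 1 bp or more counted as an overlap, and are called β-catenin/p300 sites below. There were 2175 of them among 16303 β-catenin peaks, or 13.3% (exact 95% interval 12.8 to 13.9). Over all β-catenin peaks, 36.0% overlapped an explant p300 peak and 30.6% overlapped a Smad1 peak. Both overlaps set the choice of the sites, so nothing is read from these shares.

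Chromatin immunoprecipitation followed by sequencing (ChIP-seq) had been carried out on wild-type embryos at Nieuwkoop-Faber stage 20. Foregut and hindgut explants gave 4 β-catenin and 4 p300 ChIP libraries, from foregut with BIO, foregut with DMSO, hindgut with BIO and hindgut with DMSO. BIO inhibits GSK3 and so activates the Wnt pathway. It was given at 60 μM, and it or the DMSO vehicle was applied from stage 12 to stage 20. Smad1 and p300 were also profiled in whole embryos, in 1 ChIP library each, for which the labels give no treatment. Each of the 10 ChIP libraries had an input library, and each group held 1 library.

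The peak names show that the explant lists were called on foregut and hindgut, BIO and DMSO together. A site therefore has a single value per protein, and neither tissue nor treatment can be separated. In the whole-embryo Smad1 list the peak names read pSmad1 and carry the word pooled, whereas the labels hold a single such ChIP library, so what was pooled there is not known. In such pooled material, binding in fewer cells and weaker binding in each cell cannot be told apart. A lack of a Smad1 peak means that whole embryos gave none at the threshold of that list, and does not show that Smad1 was missing from the gut. Intervals below cover the counting of peaks only, because peaks are no replicates and neighbours may depend on each other. Read depth is unknown. No gene was assigned to a peak, so the labelled tissues were not checked against marker genes.

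β-catenin carries the canonical Wnt signal into the nucleus. It does not bind DNA itself and is brought to regulatory sequence by TCF/LEF factors, where it recruits coactivators. p300 is a histone acetyltransferase and such a coactivator, and its binding is widely used as a mark of active enhancers and promoters. Smad1 is the DNA-binding effector of BMP signalling, and Wnt and BMP signals together pattern the gut tube along its length.

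The β-catenin/p300 sites were spread over the whole β-catenin list and were least frequent in its highest-scoring decile. They made up 138 of the 1631 peaks in the highest-scoring decile (8.46%, interval 7.16 to 9.92), 212 of 1630 in decile 5 (13.0%, interval 11.4 to 14.7) and 258 of 1630 in the lowest decile (15.8%, interval 14.1 to 17.7). The β-catenin peaks that overlapped both explant p300 and Smad1, called triple sites below, ran the other way, with 47.2%, 20.5% and 9.08% of the same deciles. Peaks with neither partner rose as the sites did, with 37.7%, 56.5% and 67.7%. The rise toward low scores was thus not particular to the sites. In the 3 lowest deciles the β-catenin/p300 sites outnumbered the triple sites, with 783 against 549 peaks. Among the 100 highest scores of the list, 16 were β-catenin/p300 sites, 39 were triple sites, 1 had Smad1 without explant p300, and 44 had neither partner. Over the whole list these kinds made up 13.3%, 22.6%, 7.98% and 56.0% of peaks, in the same order. The share of sites among the 100 highest scores was thus near their share of the list.

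**Figure D1:**
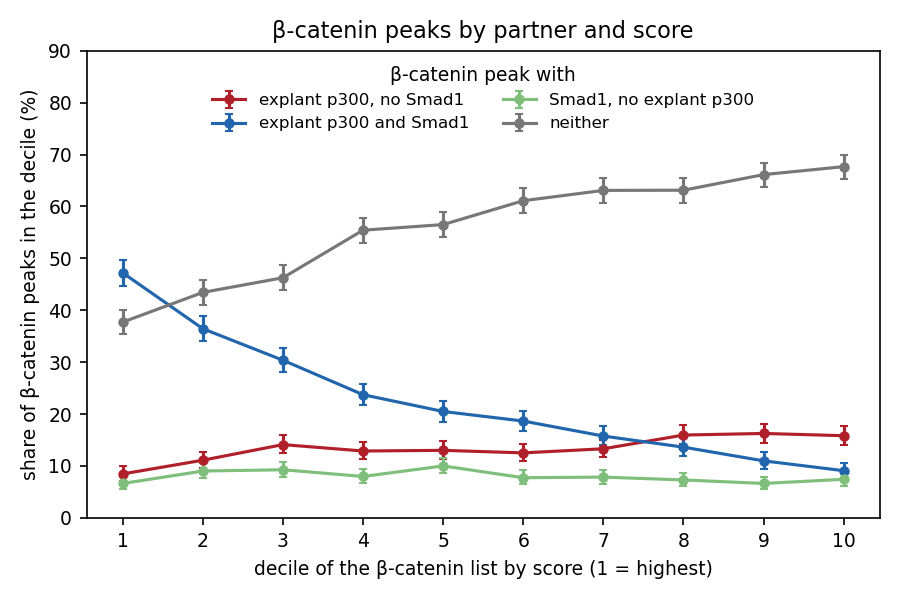
Share of β-catenin peaks (y axis, percent) in each decile of the β-catenin list by the authors' score (x axis, highest at the left), split by partner; points are shares and bars exact 95% intervals. The share with explant p300 and no Smad1 was 8.46% in the highest decile and 15.8% in the lowest. The share with both partners was 47.2% and 9.08%, and the share with neither was 37.7% and 67.7%.

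By fold, β-catenin enrichment at the sites was modest for the list, with some very strong exceptions. The fold enrichment, which is the authors' ratio of ChIP pileup over local background, had a median of 10.7 (quartiles 9.01 and 13.9, range 3.95 to 60.6). The median was 12.9 at the 3690 triple sites and 12.2 at the 9137 β-catenin peaks with neither partner, called unpartnered peaks below. Over the full list it was 12.1. The sites had a median width of 502 bp, against 594 bp at triple sites and 480 bp at unpartnered peaks. As wider peaks overlap other lists more readily, the share of β-catenin/p300 sites was also taken by width, and it was 9.56% in the narrowest decile of β-catenin peaks, 16.3% in the 390 to 430 bp decile and 10.1% in the widest. The 2 criteria of the choice moved in opposite directions with width. Explant p300 overlapped 14.5% of the narrowest decile, 47.2% of decile 9 and 40.2% of the widest. Of the peaks with explant p300, Smad1 was lacking at 65.8% in the narrowest decile and at 25.2% in the widest.

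The highest-scoring sites carried β-catenin folds far above that median beside ordinary p300 folds. The peak on Scaffold62 from 640508 to 641531, first in the whole β-catenin list, had 50.4-fold β-catenin and 7.57-fold explant p300 enrichment. The peaks on chromosome 5S from 61738477 to 61739096, chromosome 3L from 33594399 to 33595100 and chromosome 9_10S from 12316798 to 12317470 held ranks 3, 4 and 5. Their β-catenin folds were 39.9, 40.8 and 37.6, and their p300 folds were 8.46, 9.21 and 7.96. The 4 β-catenin summits lay 15, 4, 15 and 21 bp from the p300 summit, so that the factors were centred together although the p300 peak ranked only 4164 to 13456 among 15146.

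The next 6 sites by score had β-catenin ranks of 17 to 51. A broad peak of 2194 bp on chromosome 9_10L from 5469670 to 5471863 had 45.5-fold β-catenin and 9.50-fold p300 enrichment. Chromosome 7L from 84246065 to 84247500 showed 35.5-fold and 7.87-fold enrichment, with the summits 134 bp apart. On chromosome 3L from 124200457 to 124201129 there was 34.5-fold and 9.84-fold enrichment, and on chromosome 4L from 91348697 to 91349340 there was 34.2-fold and 7.79-fold enrichment. Strong p300 was found at the other two. These lay on chromosome 1S from 77652338 to 77653041, with 30.5-fold β-catenin and 13.2-fold p300 enrichment, and on chromosome 3L from 20896294 to 20897084, with 35.2-fold and 12.4-fold enrichment. Both also overlapped whole-embryo p300, at 6.62-fold and 7.19-fold, as did the sites on Scaffold62 and 5S at 6.47-fold each.

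The 5 sites with the highest explant p300 scores had β-catenin ranks of 15931, 13433, 11753, 4282 and 3699 among 16303. The highest p300 score, rank 17 of the p300 list, was on Scaffold58 from 928919 to 929368, with 24.7-fold p300 and 8.59-fold β-catenin enrichment at β-catenin rank 15931. On chromosome 6L from 3672275 to 3672846 both were raised, at 19.6-fold p300 and 13.9-fold β-catenin enrichment. On chromosome 3L from 118909914 to 118910422 there was 14.2-fold p300 and 7.64-fold β-catenin enrichment, and that on chromosome 4S from 2698233 to 2698612 had 14.9-fold and 9.69-fold. The remaining site of the 5, on chromosome 1L, is a border case described below.

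By the sum of both ranks, the sites on 1S and 3L with β-catenin ranks 34 and 51 led, followed by 3 sites with β-catenin folds of 15.3 to 22.3. These lay on chromosome 8L from 85495655 to 85496202 (p300 15.6-fold), chromosome 2L from 151537187 to 151537729 (p300 13.4-fold) and chromosome 1L from 60011176 to 60012227 (p300 12.1-fold). The β-catenin peak was in the top 10% of its list at 137 of the sites (6.30%), against 770 of the triple sites (20.9%). It was so at 6.73% of unpartnered peaks and 8.30% of peaks with Smad1 and no explant p300, so the sites were near unpartnered peaks here. The p300 peak was in the top 10% of its list at 140 of the sites (6.44%), against 926 of the triple sites (25.1%). Both were at 6 sites and at 312 triple sites. Across sites, the β-catenin and p300 folds had a Spearman correlation of 0.05, against 0.16 across triple sites. These are descriptions over peaks of the same pooled libraries, and peaks are not independent.

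**Figure D2:**
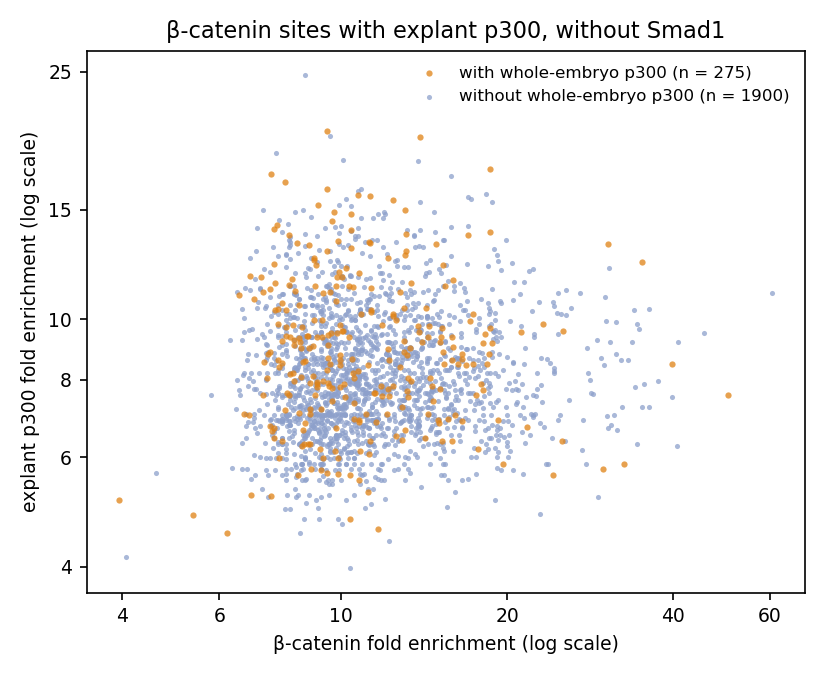
β-catenin fold (x axis) and fold of the nearest overlapping explant p300 peak (y axis), both on log scales, at each of the 2175 β-catenin/p300 sites; orange points overlap a whole-embryo p300 peak (275) and blue points do not (1900). The cloud shows no slope (Spearman correlation 0.05), and the sites above 30-fold for β-catenin have ordinary p300 folds for the most part.

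Each β-catenin score pairs with a range of folds, and at like scores the sites had lower folds than unpartnered peaks. In the highest-scoring decile the median β-catenin fold was 23.0 at β-catenin/p300 sites and 25.9 at unpartnered peaks. In decile 6 the medians were 10.7 and 11.9, and in the lowest decile 8.53 and 9.63. The median was lower at the sites in 10 of 10 deciles, with the quartile ranges overlapping. Against triple sites the order turned, with a higher median at β-catenin/p300 sites in 10 of 10 deciles (10.7 against 10.2 in decile 6). Among these kinds, width ran in the opposite order to the fold. The sites were wider than unpartnered peaks in 10 of 10 deciles and narrower than triple sites in 10 of 10. This order did not extend to β-catenin peaks with Smad1 and no explant p300. Those had both the higher median fold and the higher median width, against the sites, in 10 of 10 deciles. The parts of width and of local background in the fold difference were not tested.

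**Figure D3:**
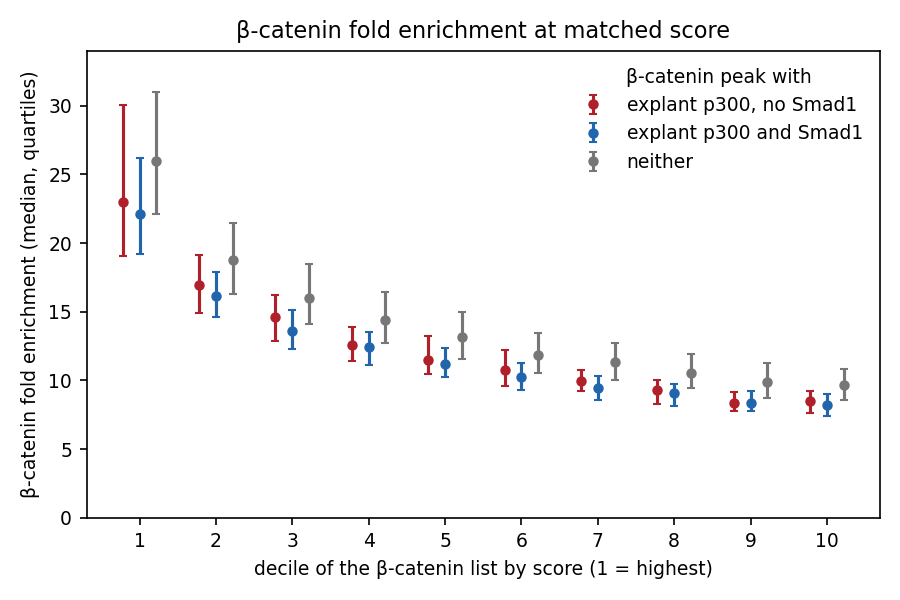
β-catenin fold enrichment (y axis; points are medians, bars run between the quartiles) in each decile of the β-catenin list by score (x axis, highest at the left), for peaks with explant p300 and no Smad1, with both, and with neither. In each decile the median of the β-catenin/p300 sites lies between that of the triple sites and that of the unpartnered peaks.

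The p300 peaks at the sites were typical of the explant p300 list. The sites took up 2182 explant p300 peaks, 14.4% of that list, with 7 sites overlapping more than 1 and 1 p300 peak shared by 2 sites. The fold of the nearest p300 peak had a median of 8.001 (quartiles 6.90 and 9.53, range 3.98 to 24.7), against 9.21 at triple sites and 8.04 over the list. Of the sites, 49.5% (interval 47.4 to 51.6) had a p300 peak in the higher-scoring 50% of the p300 list, against 74.3% (interval 72.8 to 75.7) of triple sites. p300 peaks with neither β-catenin nor Smad1 had a median fold of 7.72, and those with Smad1 and no β-catenin had 8.24. By median fold, the p300 peaks at the sites thus lay between these kinds and below those at triple sites.

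Among β-catenin peaks with explant p300, the weaker the p300 peak, the more often Smad1 was lacking. β-catenin/p300 sites made up 18.4% (interval 16.7 to 20.2) of such peaks in the highest-scoring quintile of the p300 list, 45.2% (interval 42.2 to 48.3) in the middle quintile and 60.9% (interval 57.2 to 64.5) in the lowest quintile. Explant p300 peaks without β-catenin ran the same way. In the highest quintile 211 of them had Smad1 and 910 did not, and in the lowest 149 did and 2146 did not.

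β-catenin and p300 were centred close together. The median distance between their summits was 33 bp (quartiles 14 and 67), against 27.5 bp at triple sites (quartiles 12 and 52). Overlap was required and the nearest p300 summit was taken at both kinds of site, which limits how large the distance can be. They lay within 50 bp at 66.2% of the sites (interval 64.1 to 68.1), against 73.7% of triple sites (interval 72.2 to 75.1), a difference of -7.52 points (Newcombe 95% interval -9.98 to -5.09). The shared stretch had a median length of 379 bp, which is most of a typical p300 peak of 407 bp. In the highest-scoring quintile of p300 the median distance was 25 bp in both kinds of site. In quintile 2 it was 36 bp at β-catenin/p300 sites and 29.5 bp at triple sites. At 120 sites the summits were more than 200 bp apart, and these were wide β-catenin peaks (median 892 bp, against 495 bp at the other 2055).

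The rule left few sites at its border. The smallest p300 overlaps were 19 bp on chromosome 9_10S from 42533355 to 42533690, 30 bp on chromosome 1L from 57251891 to 57252483 and 55 bp on chromosome 1L from 43756562 to 43757113. At these the p300 summit was 624 to 735 bp from the β-catenin summit. The peak at 43756562 was also the nearest to Smad1, at 47 bp, and its p300 peak had rank 20 of the list. The next nearest to Smad1 were on chromosome 6S from 33004600 to 33005135, at 84 bp, and on Scaffold160 from 73349 to 73678, at 118 bp. Just outside, β-catenin peaks on chromosome 5L from 72747846 to 72748493, 8S from 37806157 to 37806649 and 2L from 58018689 to 58019273 missed an explant p300 peak by 21, 38 and 39 bp. The smallest Smad1 overlaps among excluded peaks with p300 were 174 bp on chromosome 8L from 43132649 to 43133240, 180 bp on chromosome 2L from 135898403 to 135899241 and 185 bp on chromosome 3S from 31018515 to 31018974. The narrowest peak of the Smad1 list was itself 174 bp wide, so these need not be partial overlaps. At 3 sites the p300 peak itself overlapped Smad1 although the β-catenin peak did not.

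The whole-embryo p300 list took no part in the choice of the sites. It overlapped 275 of the 2175 β-catenin/p300 sites, or 12.6% (interval 11.3 to 14.1), and 12.8% of all β-catenin peaks, so the share at the sites was close to that of the list as a whole. It was also near the 14.1% (183 of 1301, interval 12.2 to 16.1) at β-catenin peaks with Smad1 and no explant p300, with a difference of -1.42 points whose Newcombe 95% interval held 0 (-3.82 to 0.88). Of triple sites, 40.7% (interval 39.1 to 42.3) overlapped whole-embryo p300, and the share at β-catenin/p300 sites was lower by 28.1 percentage points (difference -28.1, interval -30.2 to -25.9). Of unpartnered peaks, 1.43% (interval 1.20 to 1.70) did, a difference of 11.2 points (interval 9.85 to 12.7). Unpartnered peaks lack explant p300 by definition and the sites have it. This difference in the same protein is therefore not independent of the choice.

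The lower share than at triple sites was present in each quintile of the explant p300 list. Within a quintile p300 strength was not matched. The explant p300 peaks were also wider at triple sites (median 487 bp) than at β-catenin/p300 sites (407 bp), and the part of this width was not tested. Taken by explant p300 peak, whole-embryo p300 overlapped 26.6% of those at β-catenin/p300 sites in the highest-scoring quintile, against 56.8% of those with β-catenin and Smad1 (difference -30.3 points, interval -35.3 to -24.9). In the middle quintile the shares were 9.75% and 25.6% (difference -15.9, interval -20.3 to -11.4), and in the lowest 5.86% and 18.3% (difference -12.5, interval -17.7 to -7.64). Explant p300 peaks with neither β-catenin nor Smad1 had a lower share than the sites, by less than the sites differed from triple sites. Over all quintiles the shares were 12.6% at the sites and 8.02% at those peaks (difference 4.63 points, interval 3.17 to 6.20). In the highest quintile the difference was 3.59 points with an interval that held 0 (-1.59 to 9.08), and in quintile 2 it was 6.37 (interval 2.92 to 10.2). In the remaining quintiles it was between 1.99 and 2.50, and of these 3 intervals only that of quintile 4 lay above 0 (0.05 to 5.48). Explant p300 peaks with Smad1 and no β-catenin had a higher share than those at the sites in each quintile. Their share was 25.3% over all quintiles (interval 22.6 to 28.1), 40.8% in the highest and 19.5% in the lowest. Smad1 and this p300 list are both from whole embryos, whereas β-catenin and the other p300 list are from explants. The tissue shared by these lists cannot be told apart from the presence of Smad1.

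**Figure D4:**
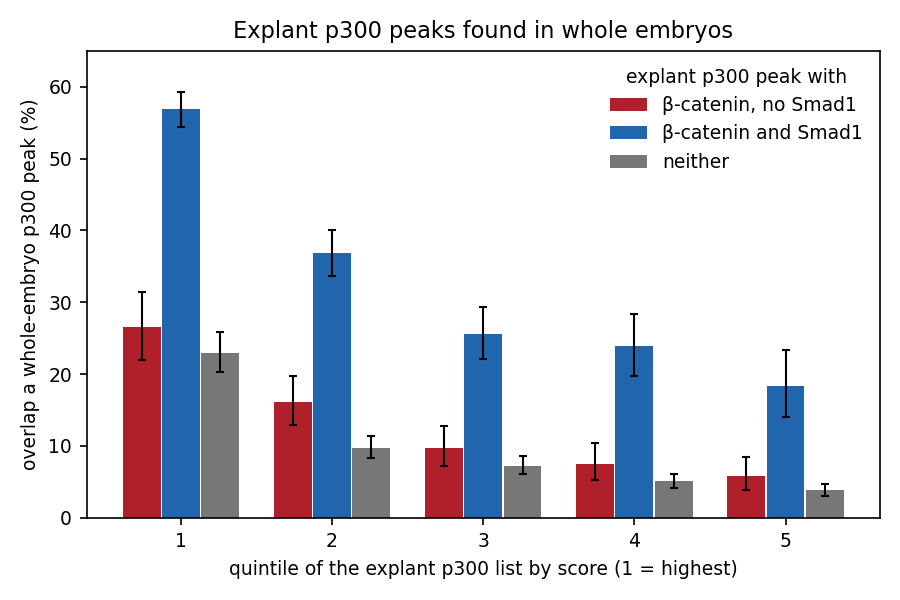
Share of explant p300 peaks that overlap a whole-embryo p300 peak (y axis, percent; bars from 0, with exact 95% intervals) in each quintile of the explant p300 list by score (x axis, highest at the left), for p300 peaks with β-catenin and no Smad1, with both, and with neither. In the highest quintile the shares were 26.6%, 56.8% and 23.0%.

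The 275 sites with whole-embryo p300 had stronger explant p300 than the other 1900, with a median fold of 8.78 against 7.90. Their β-catenin fold was 10.2 against 10.8 at the median, and the widths were 518 and 500 bp. Whole-embryo p300 summits lay a median of 54 bp from the β-catenin summit, and 46.5% (interval 40.5 to 52.6) lay within 50 bp. The highest-scoring whole-embryo p300 peak at the sites was on chromosome 7L from 52871206 to 52872114, rank 31 of that list. This site had 9.82-fold whole-embryo p300, 7.74-fold explant p300 and 15.1-fold β-catenin enrichment. On chromosome 2L from 10071556 to 10072085 p300 was high in both tissues, at 11.99-fold in whole embryos and 13.3-fold in explants, with 11.2-fold β-catenin enrichment. The next lay on chromosome 4L from 27455402 to 27455849, 3L from 21044008 to 21044502 and 9_10L from 106472689 to 106473070, with whole-embryo folds of 9.80, 9.40 and 9.15. Folds of the separate lists are set side by side here and not compared.

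Although no Smad1 peak overlapped them, the sites lay closer to Smad1 peaks than unpartnered β-catenin peaks did. The nearest Smad1 peak was a median of 42.2 kb away for 2134 sites, and 77.0 kb for 8851 unpartnered peaks. The other 41 sites and 286 unpartnered peaks lay on sequences without any Smad1 peak. A Smad1 peak was within 10 kb of 27.7% of the sites (interval 25.8 to 29.6), against 19.0% of unpartnered peaks (interval 18.2 to 19.9), a difference of 8.65 points (interval 6.63 to 10.7). Within 1 kb the shares were 4.60% and 2.63% (difference 1.97, interval 1.10 to 2.98), and within 50 kb they were 51.4% and 41.4% (difference 9.94, interval 7.61 to 12.3). Among the sites with whole-embryo p300, 32.0% had a Smad1 peak within 10 kb, against 27.1% of those without (difference 4.95, interval -0.67 to 10.9988, which holds 0).

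**Figure D5:**
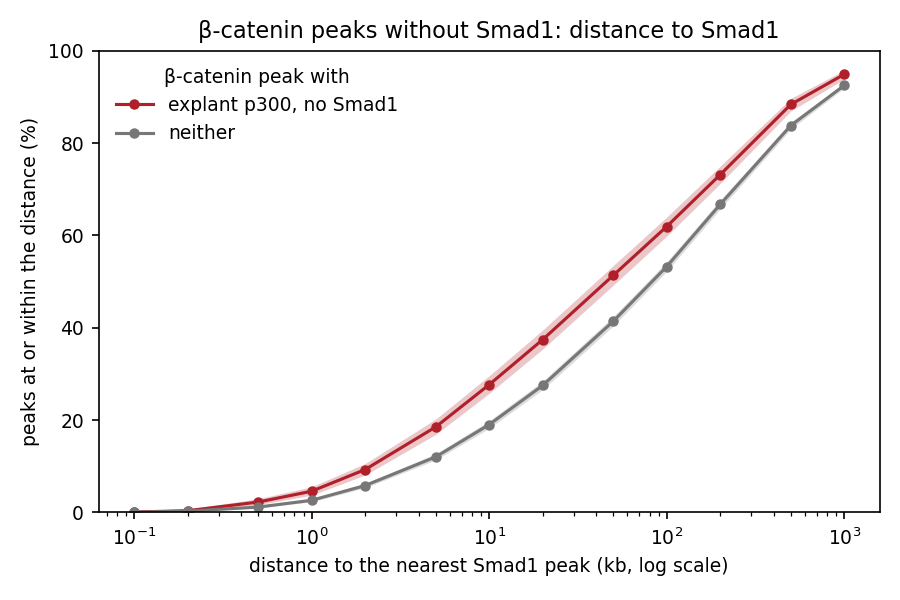
Cumulative share of peaks (y axis, percent) with a Smad1 peak at or within the distance on the x axis (kb, log scale), for β-catenin/p300 sites (red) and unpartnered β-catenin peaks (grey); shading marks exact 95% intervals. The red curve is above the grey at each plotted distance, with 27.7% against 19.0% at 10 kb. The intervals overlap at the shortest distances and are separate from 0.5 kb on.

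The sites also lay in denser neighbourhoods of β-catenin binding than unpartnered peaks, though not as dense as those of triple sites. Another β-catenin peak was within 10 kb of 45.2% of the sites (interval 43.1 to 47.3), against 58.5% of triple sites (interval 56.8 to 60.1) and 33.98% of unpartnered peaks (interval 33.0 to 35.0). The differences were -13.3 points (Newcombe interval -15.9 to -10.6) and 11.2 points (interval 8.91 to 13.5). Of the 1301 β-catenin peaks with Smad1 and no explant p300, 676 had another within 10 kb, also a larger share than at the sites. For the 983 sites with such a neighbour, the nearest one was another β-catenin/p300 site in 19.0% (interval 16.6 to 21.6). Among all 6921 β-catenin peaks with another within 10 kb, 14.2% were β-catenin/p300 sites (interval 13.39 to 15.05). The neighbour was a triple site in 29.1% and an unpartnered peak in 43.9%, where those kinds made up 31.2% and 44.9% of the 6921. A neighbour of the same kind was found for 43.0% of the triple sites and 54.7% of the unpartnered peaks that had one.

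Most sites stood alone, with 1734 having no other β-catenin/p300 site within 25 kb. The other 441 (20.3%, interval 18.6 to 22.03) formed 201 groups, of which 173 were pairs. No such count is given for the other kinds of β-catenin peak, so standing alone is not read as a trait of the sites. The group with most members held 6 sites over 50.9 kb on chromosome 9_10L from 73211596 to 73262451, with β-catenin folds of 7.92 to 14.1 and p300 folds of 7.23 to 10.6. None of the 6 overlapped whole-embryo p300, and the span held 8 β-catenin, 10 explant p300 and 2 Smad1 peaks in all. A group of 5 on chromosome 6L from 39618783 to 39644774 had β-catenin folds of 7.42 to 19.4 and 1 Smad1 peak in its span. A group of 5 on chromosome 2L from 56859907 to 56877817 had β-catenin folds of 9.09 to 14.0. Its span of 17.9 kb held no other β-catenin peak and no Smad1 peak. A further group of 5 lay on chromosome 3L from 119544579 to 119609523 and likewise held no Smad1 peak.

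The Xenopus laevis genome is allotetraploid and its chromosomes come in pairs, the longer named L and the shorter S. Of the 2042 sites on named chromosomes, 1275 (62.4%, interval 60.3 to 64.5) were on L chromosomes, against 59.4% of the other β-catenin peaks (interval 58.6 to 60.3). The difference was 3.02 points (interval 0.74 to 5.26). Set against triple sites alone, at 60.3%, it was 2.11 points with an interval that held 0 (-0.56 to 4.75), and against unpartnered peaks, at 59.3%, it was 3.18 points (interval 0.82 to 5.503). The share of β-catenin peaks that were β-catenin/p300 sites was higher on L in 7 of 9 chromosome pairs. It was highest on 6L, at 148 of 928 (15.9%, interval 13.7 to 18.5), and lowest on 9_10S, at 82 of 741 (11.1%, interval 8.90 to 13.5). These are the extremes of 18 chromosomes, and the difference between them was not tested. Over all pairs it was 13.9% on L and 12.5% on S (difference 1.46 points, interval 0.36 to 2.54). On pairs 3 and 5 it was lower on L, at 12.4% on 3L against 12.5% on 3S and 11.8% on 5L against 13.8% on 5S. Explant p300, which was used to choose the sites, overlapped 37.0% of β-catenin peaks on L and 35.0% on S. The part of this in the L share of the sites was not tested. Of the sites with whole-embryo p300, 57.4% (interval 51.0 to 63.6) were on L, against 63.1% of those without (interval 60.9 to 65.4).

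Unplaced scaffolds held 133 of the sites (6.11%, interval 5.14 to 7.21), against 6.27% of the other β-catenin peaks (difference -0.16 points, interval -1.17 to 0.997). These lay on 78 scaffolds, with 9 sites on Scaffold20 and 7 on Scaffold21. At 36 of them the peak started within 500 bp of the first base of its scaffold, so that the sequence around it is cut short.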

How the data were processed

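The 4 deposited peak lists were used, each as 1 list. The tools listed by the submitters' processing notes are MACS2, Bowtie2, SAMtools, Picard, Trimmomatic and FastQC, with no version or role for any. For the genome build, a name was not given in the sources used here. Files carry no header and follow the narrow-peak layout of MACS2. Each deposited score is 10 times the −log10 p-value of the peak (−log10 q-value in the whole-embryo p300 list), to within 1 unit. The fold enrichment is the authors' ratio of ChIP pileup over local background. The β-catenin, explant p300 and Smad1 lists end at a deposited −log10 p of 78.6, 23.1 and 14.4, and their titles name IDR, with settings not stated. The whole-embryo p300 list ends at a −log10 q of 1.30, and its median width is 118 bp. The other deposited values used were the summit offsets in bp.

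In the whole-embryo p300 list, 172 lines repeated an interval for a further summit and only the highest score was kept, and 14 peaks without a summit were given their midpoint. Scores and folds were read within a list only. Shares have exact Clopper-Pearson 95% intervals, differences of shares have Newcombe intervals, and both cover counting error only. No p-value was computed, because no list has replicates. With several explant p300 peaks in a site, the one with the nearest summit gave its values. With several whole-embryo p300 peaks, the highest-scoring one did. Regions were named by rule: the 10 highest β-catenin scores, the 5 highest explant p300 scores, the 5 lowest rank sums, the 5 highest whole-embryo p300 scores, the 3 groups with most sites by gaps of up to 25 kb (a tie added a further group of 5), and 3 at each border. The sites and rules were chosen with earlier results of these data known. The joins were tested on simulated lists. Calculations used Python 3.11.15, numpy 2.4.6, pandas 2.3.3 and scipy 1.17.1.

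The gene table at hand extended past the final peak by over 1 Mb on all 18 chromosomes and was taken to be of another build, so genes and sequences were not analysed here. Tissue and treatment were not compared, since the explant lists pool both.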

Additional observations from a re-analysis of the deposited data

How the results depend on the processing

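Of 72 recomputed values, 54 stayed within 1.5 times the count of sites or inside the 95% interval of the value given, and 18 moved. None of the differences in whole-embryo p300 share changed direction. The other values are counts, shares and medians, which have no sign to change. With the higher-scoring 50% of explant p300 there were 1078 sites, 18.6% with whole-embryo p300, 16.5 points above unpartnered peaks, at a median p300 fold of 9.43. With the higher-scoring 50% of Smad1 there were 3317 sites, of which 16.7% overlapped whole-embryo p300, 31.3 points fewer than at triple sites (difference -31.3) and 14.7 points more than at unpartnered peaks; 18.8% lay within 10 kb of the shorter Smad1 list, and the median folds were 10.9 (β-catenin) and 8.21 (p300). Leaving out sites with a Smad1 peak within 1 kb gave 24.2% within 10 kb, which follows from the setting. β-catenin peaks of middle width gave 1193 sites and a difference from triple sites of -24.0 points. The higher-scoring 50% of β-catenin peaks gave 971 sites, a difference of -33.0 points, a median summit distance of 38 bp and a median β-catenin fold of 14.3, the last fixed by the setting. Named chromosomes only, summits within 200 bp and a required 50% of the shorter peak moved none of the 9 values. The L share ran from 61.7% to 64.1%. The number of sites thus depends on where the Smad1 and p300 lists end. No paired analysis was possible because each group has 1 library and the lists hold no replicates. Depth is unknown, so a missing peak cannot be given a limit.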
